A study of Mus musculus with 59 samples.

Results

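The genes described here are 9 neocortical layer identity genes, Rorb, Cux2, Lamp5, Fezf2, Bcl11b, Etv1, Tbr1, Foxp2 and Tle4, which are used to tell apart the layers of the cerebral cortex. They were listed by name, with earlier results of these data known. They make up 9 of the 57180 gene entries of the raw count table. Of these, 8 were matched by symbol. Bcl11b was matched by its gene identifier ENSMUSG00000048251, because the table lists that gene under Rit1, an older synonym. All 9 genes passed the filter on low counts in both tissues, which left 20394 genes tested in cortex and 20162 in hippocampus.

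The 59 libraries hold poly(A) RNA from the cortex or the hippocampus of 30 mice, all male, and 29 of these animals gave both tissues. The labels name 4 genotypes at the genes Slc25a1, the mitochondrial citrate carrier, and Mrpl40, a protein of the mitochondrial ribosome. Wild type carries both genes as +/+, Slc25a1 het is -/+ for Slc25a1 alone, Mrpl40 het is -/+ for Mrpl40 alone, and double het is -/+ for both. Cortex had 9 wild-type libraries and 7 of each other genotype, and hippocampus had 8 and 7. Each library of a tissue comes from a separate animal. Age, strain background and the nature of the alleles are not given in the labels, and all groups share the male sex.

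The neocortex is built of layers whose projection neurons differ in connections and in the transcription factors they keep. Upper-layer neurons project within the cortex, layer 4 receives thalamic input, layer 5 sends axons to the brainstem and spinal cord, and layer 6 projects back to the thalamus. Cux2 is a homeodomain factor of upper-layer neurons, Rorb a nuclear receptor of layer 4, and Lamp5 a membrane protein of the lysosome-associated family found in upper-layer neurons and in one class of interneurons. Fezf2 is a zinc finger factor that specifies the subcerebral neurons of layer 5, Bcl11b (also called Ctip2) acts downstream of it, and Etv1 is an ETS factor of another set of layer 5 neurons. Tbr1, a T-box factor, Foxp2, a forkhead factor, and Tle4, a Groucho co-repressor, mark layer 6. The hippocampus has no such layers, but Bcl11b is well known in its granule and CA1 pyramidal neurons.

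Levels are given as CPM, each count relative to its library's total, scaled by TMM, a correction for library composition. Total counts per library ranged from 21443017 to 32120906. The log2 CPM of none of the 9 genes was related to the log2 total count in either tissue, with r between -0.307 and 0.428 in cortex (lowest adjusted p = 0.166, permutation test, 30 libraries) and between -0.200 and 0.202 in hippocampus (lowest adjusted p = 0.871, 29 libraries). Slc25a1 went against the label in both tissues of 6 animals. Low levels, at most 13.0 CPM, stood in wild-type animals 6 and 7, and high levels, at least 20.9 CPM, in Slc25a1 het animals 3 and 4 and double het animals 5 and 6. Mrpl40 overlapped between the labelled genotypes and ranged from 13.4 to 20.7 CPM over all libraries. Genotype names below are therefore those of the labels. The hippocampus libraries labelled Slc25a1 het 3 and double het 7 had summed cerebellar markers over 3 times the median of their tissue, 7.64 CPM. The sum was 562 CPM in Slc25a1 het 3, where Gabra6 reached 66.0 CPM and Cbln3 185 CPM. In double het 7 it was 24.1 CPM, just past that limit and within the range of cortex libraries, 16.9 to 28.7 CPM. Hippocampus wild type 8 stood apart for several layer genes and is described with them.

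Promoter sequence was at hand for 8 of the 9 genes in a RefSeq table (GRCm38.p6), with 13 promoters of 250 bases before to 50 after a start. None was listed for Foxp2. The promoters of Lamp5 (chr2:136052089-136052388, plus strand), Bcl11b (chr12:108003365-108003664, minus strand) and Tle4 (chr19:14598134-14598433, minus strand) are shown because Lamp5 and Bcl11b formed the most negative, and Bcl11b and Tle4 the most positive, cortex pair among genes with a promoter sequence. Each runs 5′ to 3′ and capitals mark CG dinucleotides.
Lamp5: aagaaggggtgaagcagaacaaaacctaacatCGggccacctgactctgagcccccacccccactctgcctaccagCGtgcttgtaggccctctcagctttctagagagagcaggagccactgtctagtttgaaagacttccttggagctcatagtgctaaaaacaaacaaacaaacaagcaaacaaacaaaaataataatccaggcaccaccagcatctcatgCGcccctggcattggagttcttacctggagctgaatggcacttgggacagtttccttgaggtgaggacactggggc
Bcl11b: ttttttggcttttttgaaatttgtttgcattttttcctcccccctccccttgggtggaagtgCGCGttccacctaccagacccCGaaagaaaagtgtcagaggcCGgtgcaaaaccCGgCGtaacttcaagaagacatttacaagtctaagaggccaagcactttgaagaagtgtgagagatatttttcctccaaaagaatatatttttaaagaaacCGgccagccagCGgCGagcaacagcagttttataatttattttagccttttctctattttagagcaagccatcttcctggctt
Tle4: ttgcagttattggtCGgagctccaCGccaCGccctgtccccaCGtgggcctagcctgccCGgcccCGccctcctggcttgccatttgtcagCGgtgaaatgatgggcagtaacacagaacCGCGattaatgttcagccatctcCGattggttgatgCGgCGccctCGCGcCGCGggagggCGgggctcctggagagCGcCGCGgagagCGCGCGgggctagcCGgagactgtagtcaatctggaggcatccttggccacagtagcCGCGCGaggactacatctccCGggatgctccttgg
The Lamp5 promoter held 3 CG dinucleotides at a G and C share of 50.7%, the Bcl11b promoter 9 at 43.0%, and the Tle4 promoter 28 at 65%. Over all 32851 promoters of the table the medians were 7 and 52.7%. In these windows Bcl11b and Tle4 differed more in CG content than Lamp5 and Bcl11b. Lamp5 and Tle4 each had a second promoter, with 2 and 44 CG dinucleotides. Any relation of CG content to the correlations was not tested.

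On both strands, 7 short motifs were searched in these windows. The nuclear receptor element AGGTCA was in 16.3% of all promoters, the T-box element AGGTGTGA in 1.28%, the forkhead elements TATTTAT and TATTTGT in 5.6% and 3.63%, and the ETS element CCGGAAGT in 3.89%. Each of these 5 was in 0 of the 13 promoters. The Cut homeodomain element ATCGAT was in 0.925% of all promoters and in 1 of the 13, the second Cux2 promoter, 72 bases before the start. ATCAAT was in 7.54% of all promoters and in 1 of the 13, the second Etv1 promoter, on the reverse strand 124 bases before the start. These matches describe letters in the windows, and binding was not measured.

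In cortex the upper-layer gene Lamp5 and the layer 6 gene Tbr1 led the levels per kilobase of exon, and Foxp2 was lowest. Means per kilobase over the 30 libraries were 97.7 CPM for Lamp5, 26.0 for Tbr1, 24.1 for Cux2, 13.1 for Fezf2, 9.77 for Rorb, 7.79 for Tle4, 6.76 for Bcl11b, 6.47 for Etv1 and 0.655 for Foxp2. Lamp5 was above Tbr1, and Etv1 above Foxp2, in all 30 libraries. Neighbours that did not keep their order were Tbr1 and Cux2, with Tbr1 higher in 20 of 30, and Bcl11b and Etv1, with Bcl11b higher in 16 of 30. The remaining neighbours kept their order in 24 to 29 of 30 libraries.

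The order in hippocampus was another one, led by Bcl11b. Means per kilobase over 29 libraries were 31.4 CPM for Bcl11b, 14.8 for Lamp5, 11.7 for Tle4, 8.91 for Tbr1, 8.57 for Fezf2, 6.84 for Etv1, 2.97 for Rorb, 2.88 for Cux2 and 0.0713 for Foxp2. Bcl11b was above Lamp5, and Tle4 above Tbr1, in 29 of 29 libraries. Tbr1 and Fezf2, in order in 18 of 29 libraries, and Rorb and Cux2, in order in 17, could not be ranked beyond their spread. Bcl11b thus went from the seventh place in cortex to the first in hippocampus, and Cux2 from the third to the eighth.

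**Figure D1:**
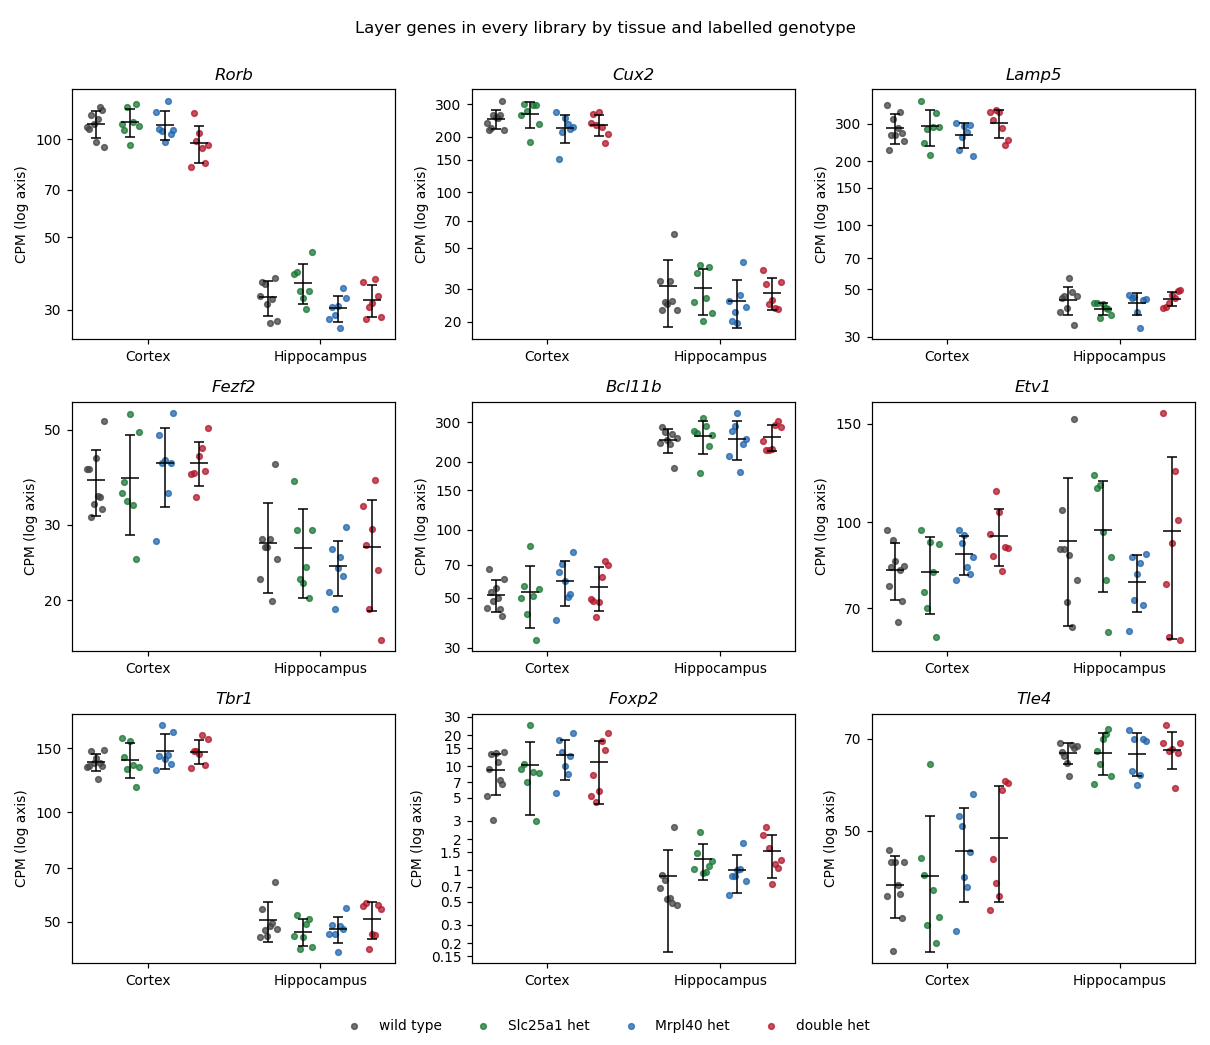
Level of each of the 9 layer genes in every library, in CPM on a log axis, by tissue and labelled genotype. Each point is 1 library, the short black bars are group means, and the error bars are the SD. The cortex and hippocampus points do not overlap for Rorb, Cux2, Lamp5, Bcl11b, Tbr1 and Foxp2, and overlap for Fezf2, Etv1 and Tle4.

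Spread between animals differed by gene. Foxp2 was the most variable of the 9 in cortex, from 2.98 CPM through a median of 9.34 to 25.0 CPM, which is 8.42-fold, with a mean of 10.7 ± 5.53 (SD, n = 30) and a coefficient of variation of 51.7%. Tbr1 was steady, from 118 to 174 CPM (mean 142 ± 12.8, SD, n = 30). In hippocampus Tle4 kept within 58.5 to 73.7 CPM (mean 66.6 ± 4.22, SD, n = 29). Foxp2 was at the low end of detection there, from 0.464 to 2.64 CPM (mean 1.17 ± 0.615, SD, n = 29). Intermediate spread was seen for Etv1 in hippocampus, from 61.5 to 157 CPM (mean 91.0 ± 25.0, SD, n = 29).

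The comparison between tissues asked how far the layer genes set cortex apart from hippocampus within the same animals. Of the 9 genes, 8 differed between the tissues in each labelled genotype, 6 lower and 2 higher in hippocampus, by edgeR's quasi-likelihood test with the animal as a block and Benjamini-Hochberg adjustment over 21354 genes. DESeq2 also called 8 in each. Of all genes, 60.6% were called for wild type, 60.4% for Slc25a1 het, 60.3% for Mrpl40 het and 57.5% for double het, so a call by itself is common here and the sizes carry the description. Levels below are over all 9 wild-type cortex and 8 wild-type hippocampus libraries, and the fitted differences are over animals with both tissues. The median difference of the 9 genes in wild type was -1.46 on the log2 scale. In bulk tissue, fewer cells of a type and less RNA per cell cannot be told apart.

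The upper-layer and layer 4 genes were all lower in hippocampus. Lamp5 in wild-type cortex had a lowest, median and highest level of 225, 270.0 and 368 CPM, and in wild-type hippocampus of 34.1, 46.0 and 56.7 CPM. The ranges were far apart, and the log2 difference was -2.64 (SE 0.10, edgeR adjusted p = 3.67e-18). Cux2 stood at 216, 253 and 313 CPM in cortex, against 23.0, 25.6 and 59.4 CPM in hippocampus, with -3.07 (SE 0.13, edgeR adjusted p = 1.32e-17). All Cux2 hippocampus values but the highest were at or below 33.1 CPM. Rorb was at 94.6, 111 and 126 CPM in cortex against 27.2, 32.8 and 37.6 CPM in hippocampus, with -1.78 (SE 0.09, edgeR adjusted p = 2.52e-16). For these 3 genes no hippocampus library of any genotype reached the lowest cortex library.

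The layer 5 genes did not move together. Bcl11b was at 41.4, 49.7 and 67.0 CPM in wild-type cortex against 187, 253 and 286 CPM in hippocampus, a log2 difference of 2.25 (SE 0.09, edgeR adjusted p = 4.17e-18). It was the layer gene with the highest level in hippocampus, and its ranges did not overlap. Fezf2 was at 31.3, 35.1 and 52.5 CPM in cortex against 20.0, 26.6 and 41.6 CPM in hippocampus. Its ranges overlapped, and the difference was -0.49 (SE 0.15, edgeR adjusted p = 0.00564). Etv1 was at 66.3, 83.2 and 96.9 CPM in cortex against 64.9, 88.4 and 153 CPM in hippocampus. The Etv1 ranges overlapped nearly in full apart from the high hippocampus values, and the difference of 0.16 (SE 0.15, edgeR adjusted p = 0.351) did not pass the test. In the other labelled genotypes Etv1 differences were 0.23, -0.17 and -0.04, none past the test.

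Of the layer 6 genes, Foxp2 and Tbr1 fell and Tle4 rose in hippocampus. Foxp2 was at 3.02, 9.34 and 13.8 CPM in wild-type cortex against 0.464, 0.608 and 2.59 CPM in hippocampus, with the widest log2 difference of the 9 genes and the widest error, -3.42 (SE 0.40, edgeR adjusted p = 3.1e-08). Tbr1 was at 124, 136 and 148 CPM in cortex against 45.4, 48.1 and 64.4 CPM in hippocampus, with -1.46 (SE 0.07, edgeR adjusted p = 1.11e-17). Neither gene's wild-type ranges overlapped. Tle4 was at 32.2, 40.9 and 46.6 CPM in cortex against 61.2, 67.3 and 69.0 CPM in hippocampus, with 0.69 (SE 0.10, edgeR adjusted p = 9.44e-07). The wild-type ranges of Tle4 were apart, but over all genotypes its highest cortex level, 63.8 CPM, was above its lowest hippocampus level, 58.5 CPM.

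**Figure D2:**
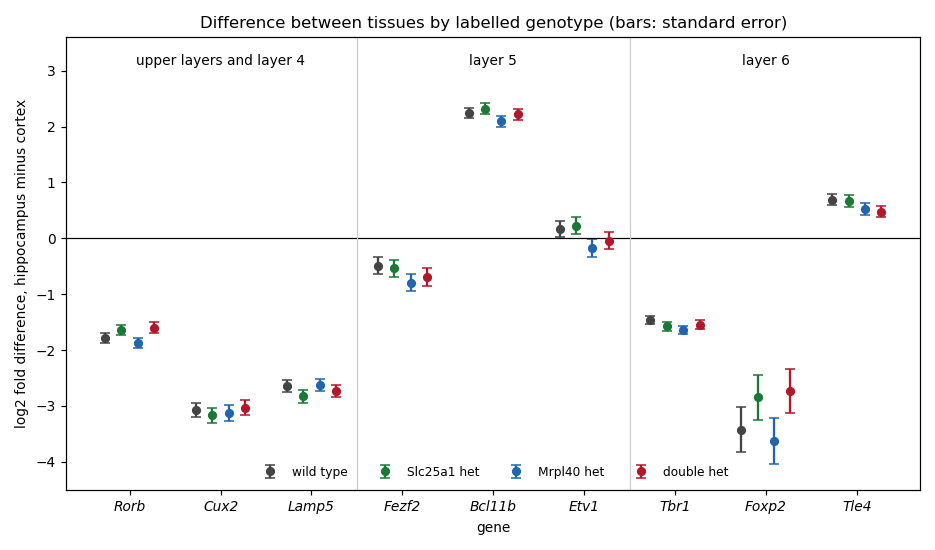
Log2 fold difference between hippocampus and cortex for each layer gene and labelled genotype, with points for the edgeR estimate and bars for 1 standard error. Cux2, Lamp5 and Foxp2 lie lowest, Bcl11b and Tle4 lie above 0, and Etv1 lies near 0 in all 4 genotypes.

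The size of the tissue difference was not shown to depend on genotype. The term for tissue by genotype was called by edgeR for 0 of 9 genes in Slc25a1 het, Mrpl40 het and double het, where 0%, 0% and 0.0234% of all genes were called. None of the 9 passed an unadjusted p of 0.05 in these 3 comparisons, and DESeq2 called 0 too. Foxp2 in double het had the most positive estimate, 0.69 (SE 0.59).

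Within each animal the hippocampus level can be read as a percentage of its own cortex level. The lowest, median and highest percentages over 29 animals were 7.81, 10.7 and 19.0 for Cux2, 11.2, 15.2 and 21.3 for Lamp5, and 20.1, 30.6 and 44.3 for Rorb. They were 26.5, 34.0 and 48.0 for Tbr1 and 3.35, 10.4 and 42.5 for Foxp2. All 29 animals were below 100% for these 5 genes. Bcl11b was at 317, 469 and 723% and Tle4 at 101, 151 and 219%, with no animal below 100%. Fezf2, at 32.0, 65.9 and 127%, was below 100% in 27 of 29 animals, and Etv1, at 54.8, 96.6 and 213%, in 15 of 29.

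Layer markers in a hippocampus library can come from neocortex in the dissection, so the library with the highest levels was followed over all 9 genes. Hippocampus wild type 8 had the highest Cux2 (59.4 CPM, 2.31 times the median of the 29), Fezf2 (41.6 CPM) and Tbr1 (64.4 CPM), and the second highest Foxp2 (2.59 CPM) and Etv1 (153 CPM). Rorb, at 37.6 CPM, was the fourth highest of the 29 and highest of the 8 wild-type libraries, and Tle4, at 67.8 CPM, was near the middle. Lamp5, at 34.1 CPM, was the second lowest and Bcl11b, at 187 CPM, the third lowest. Against its own cortex, this animal had the highest percentages for Cux2, Fezf2, Etv1 and Tbr1, with 19.0, 127, 213 and 48.0%. Foxp2 was at 38.5% (rank 2 of 29), Tle4 at 186% (rank 4), Rorb at 30.6% (rank 15), Bcl11b at 452% (rank 18) and Lamp5 at 12.6% (rank 24). The 13 hippocampal subfield genes summed to 791 CPM in this library against 860 to 1436 CPM in the other 28, and the 5 oligodendrocyte markers to 4198 CPM, the highest of the 29. The 13 genes of layers 6 and 6b reached 277 CPM, also the highest, and the upper-layer list 320 CPM, rank 24. Whether cortex tissue, white matter or another share of cells was in this piece was not tested.

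**Figure D3:**
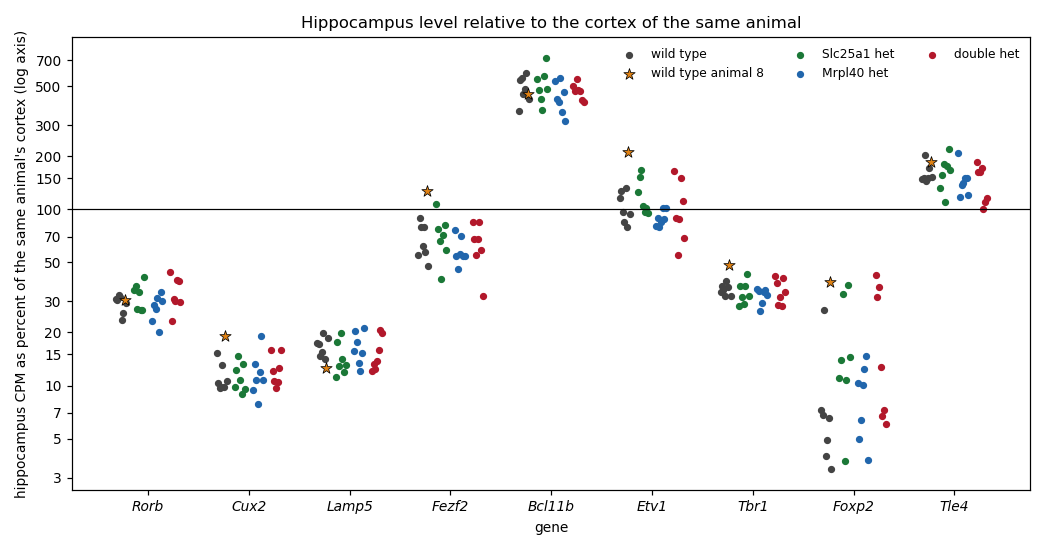
Hippocampus level of each layer gene as a percentage of the level in the cortex of the same animal, on a log axis, with 1 point per animal and a star for wild-type animal 8; the line marks 100%. The star is the highest point for Cux2, Fezf2, Etv1 and Tbr1 and lies among the lower points for Lamp5, at 12.6%.

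Other markers of the same layers gave a similar order of tissue differences in wild type, listed by counts. Of the 8 upper-layer genes tested, 7 fell and 1 rose in hippocampus, with a median of -1.68. Cux1, the homeodomain relative of Cux2, had -1.57 (SE 0.06) and Pou3f2, a POU factor of upper-layer neurons, -2.14 (SE 0.10), while Mdga1, a surface protein, rose by 1.90 (SE 0.12). Of the 4 layer 4 genes, 3 fell and 1 rose, and Rspo1, a secreted Wnt modulator, had -3.91 (SE 0.16), Rora, the relative of Rorb, -1.32 (SE 0.08) and Whrn -1.99 (SE 0.12). These signs match those of Cux2 and Rorb for all named genes but Mdga1.

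The deep layer lists were mixed, as were the deep members. Of 8 layer 5 genes, 2 rose and 3 fell, with a median of -0.14. Bcl6, a transcriptional repressor, rose by 1.57 (SE 0.06), and Qrfpr, a neuropeptide receptor, and Deptor, an mTOR inhibitor, had -2.76 (SE 0.17) and -1.70 (SE 0.13). Of 13 genes of layers 6 and 6b, 2 rose and 7 fell, with a median of -0.54. Zfpm2, a GATA cofactor, rose by 2.56 (SE 0.16), Oprk1, the kappa opioid receptor, had -2.60 (SE 0.33) and Ntsr1, a neurotensin receptor, -1.61 (SE 0.23). For scale, 11 of 13 hippocampal subfield genes rose and 0 fell. The 3 with the smallest p were the dentate granule cell markers Tdo2 (4.95, SE 0.14), Lct (6.17, SE 0.16) and Dsp (8.14, SE 0.21), and every gene named from these lists passed edgeR's test.

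Across genotypes, no layer gene passed the test in either tissue. Over the 12 within-tissue comparisons and the 3 terms for tissue by genotype, 135 tests of a layer gene, edgeR and DESeq2 each called 0. At an unadjusted p of 0.05, edgeR passed 7 of the 135 (5.19%) and DESeq2 8, and the lowest adjusted p of edgeR was 0.308. The shares of all genes called in cortex were 0% for Slc25a1 het, 0.0294% for Mrpl40 het and 0.0686% for double het, each against wild type, and 0.0588% and 0.0049% for double het against Slc25a1 het and Mrpl40 het. In hippocampus they were 0%, 0.00496% and 0.00992% against wild type and 0% and 0% for double het against the single hets. The interaction, double het minus both single effects, called 0% of genes in both tissues. So few genes of any kind were called that a count of 0 among 9 is no result about layer genes.

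Rorb in cortex had the lowest p of the 9. The 9 wild-type libraries had a lowest, median and highest level of 94.6, 111 and 126 CPM, those of Slc25a1 het of 95.9, 111 and 128 CPM, those of Mrpl40 het of 98.1, 107 and 131 CPM, and those of double het of 82.2, 95.7 and 120 CPM. The double het range reached lower than the other 3 and overlapped all of them. The log2 difference of double het was -0.20 (SE 0.08, edgeR adjusted p = 0.308) against wild type, -0.22 (SE 0.08, edgeR adjusted p = 0.318) against Slc25a1 het and -0.19 (SE 0.08, edgeR adjusted p = 0.658) against Mrpl40 het. Without the 6 animals whose Slc25a1 level went against the label, the first was -0.12 (edgeR adjusted p = 0.803). In hippocampus Rorb of double het against Slc25a1 het was -0.19 (SE 0.09, edgeR adjusted p = 0.541).

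Etv1 in cortex pointed the other way. Wild type was at 66.3, 83.2 and 96.9 CPM and double het at 81.6, 90.4 and 114 CPM, and the ranges overlapped. The log2 difference was 0.20 (SE 0.08, edgeR adjusted p = 0.372) against wild type and 0.21 (SE 0.09, edgeR adjusted p = 0.427) against Slc25a1 het.

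Foxp2 in hippocampus of double het was at 0.748, 1.26 and 2.64 CPM, against 0.464, 0.608 and 2.59 CPM in wild type. The 2.59 CPM came from hippocampus wild type 8. With all libraries the log2 difference was 0.76 (SE 0.33, edgeR adjusted p = 0.925), and without that library it was 1.26 (edgeR adjusted p = 0.200), an alternative chosen after seeing the data. Tle4 in cortex of double het had a difference of 0.24 from wild type, and 0.11 without the 6 animals named above.

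In direction, 7 of the 9 genes were above 0 and 2 below in cortex of double het against wild type, with a median of 0.11, and 6 and 3 in hippocampus, with a median of 0.01. The other layer lists gave no call in these 15 comparisons either. At an unadjusted p of 0.05 edgeR passed 3 of 120 tests of upper-layer genes, 5 of 60 of layer 4 genes, 10 of 120 of layer 5 genes and 13 of 195 of layers 6 and 6b. No share of all genes is set beside these directions and counts. The 9 genes also varied together between cortex libraries, as described below, so their directions are not independent. They are therefore no result about layer genes.

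Over and within the labelled genotypes, the layer genes varied together between cortex libraries. Of the 36 pairs, 28 were correlated over the 30 cortex libraries, 14 positively and 14 negatively (Pearson r of log2 CPM, two-sided permutation test with 100000 resamples, adjusted over 36 pairs). That is 77.8% of the pairs. Among all pairs of the 16563 other genes at a mean log2 CPM of at least 0, 9.64% had an r as far from 0 as the weakest of these 28, 5.18% positive and 4.46% negative. With the mean of each labelled genotype removed, 26 pairs passed the test, 25 of the 28 among them. All 15 pairs among the 6 deep-layer genes were positive, 12 of them past the test, with r from 0.0649 to 0.887 and a median of 0.640. Of the 18 pairs of an upper-layer or layer 4 gene with a deep-layer gene, 17 were negative, 14 of them past the test, with r from -0.767 to 0.182 and a median of -0.547. The 3 pairs among Rorb, Cux2 and Lamp5 were positive, 2 past the test, with r from 0.217 to 0.524.

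The tightest pair was Foxp2 and Tle4, both of layer 6, with r of 0.887 and rho of 0.876 (adjusted permutation p = 5.1e-05 and 6e-05, both from the smallest p the resamples can give, 1e-05). Without the 2 libraries farthest from the median of Foxp2, r was 0.865, and with genotype means removed 0.920. Bcl11b followed Tle4 with r of 0.860 (rho 0.836, 0.823 without 2 libraries) and Foxp2 with r of 0.851, although Bcl11b is a layer 5 gene. Fezf2 and its downstream factor Bcl11b had r of 0.804, and 0.731 without 2 libraries. The layer 5 and layer 6 genes of these pairs rose and fell together between animals.

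On the negative side stood Lamp5 and Cux2 against the same deep genes. Lamp5 and Bcl11b had r of -0.767 (rho -0.775, -0.772 without 2 libraries), Lamp5 and Foxp2 -0.741, Cux2 and Tle4 -0.720, Cux2 and Bcl11b -0.703 and Cux2 and Foxp2 -0.621. Rorb was negative with Fezf2, at -0.596, and with Etv1, at -0.505. Libraries with high Bcl11b, Foxp2 and Tle4 were thus those with low Lamp5 and Cux2.

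Etv1 was the layer gene least tied to the rest. It was not past the test with Foxp2 (r of 0.0649), Lamp5 (0.182), Tle4 (0.261) or Bcl11b (0.289). With Tbr1 it had r of 0.481, past the test, and with Fezf2 0.451, past the test but 0.277 without 2 libraries.

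**Figure D4:**
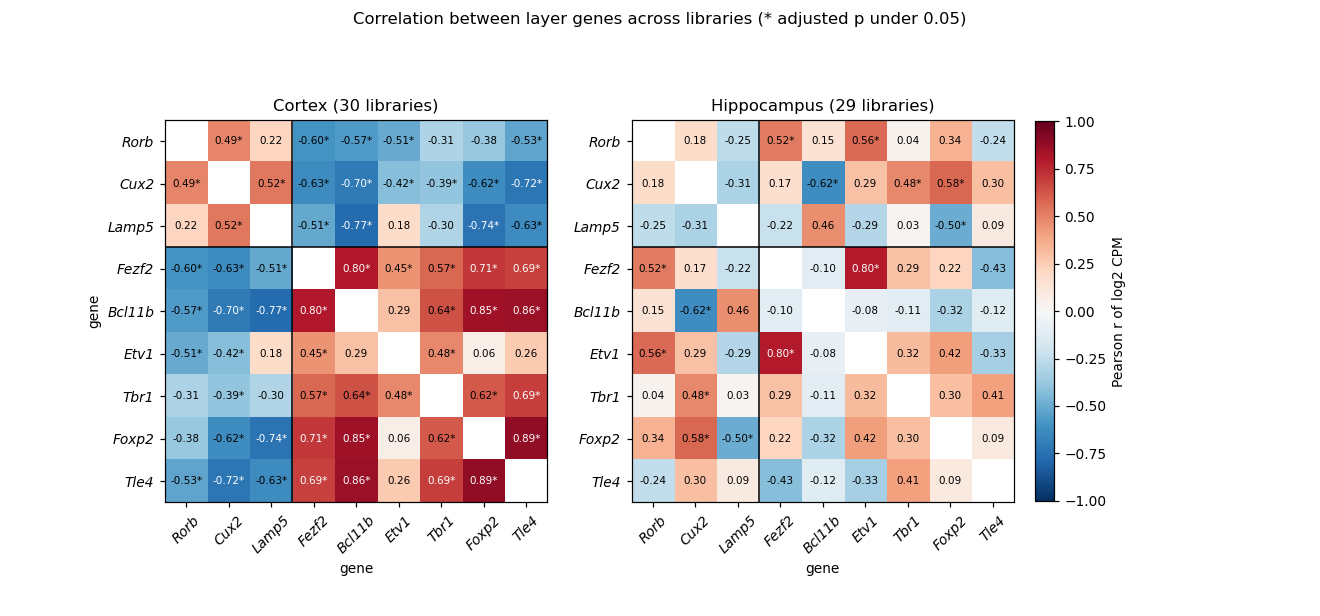
Pearson r of log2 CPM between each pair of layer genes, in 30 cortex libraries and 29 hippocampus libraries, from blue (negative) to red (positive); stars mark an adjusted p under 0.05. In cortex the deep-layer genes form a red block set against Rorb, Cux2 and Lamp5, with 28 stars, and hippocampus has 7.

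Markers of other layers and of other cells moved with the same axis in cortex. Of 99 relations of a layer gene with a summed marker list, 61 passed the test (permutation, adjusted over 99), or 61.6%. Of the relations of 16487 genes outside the lists with the same 11 sums, 12.5% had an r as far from 0 as the weakest of these 61. Against the upper-layer list, which holds none of the 9 genes, r was 0.873 for Cux2, 0.759 for Lamp5, -0.896 for Bcl11b, -0.811 for Tle4 and -0.800 for Foxp2. Against the list of layers 6 and 6b it was 0.874 for Foxp2, 0.838 for Bcl11b, 0.818 for Tle4, -0.736 for Cux2 and -0.817 for Lamp5. Rorb had r of 0.859 with the layer 4 list and Etv1 0.720 with the layer 5 list. Fezf2 and Bcl11b had 0.646 and 0.635 with the layer 5 list, and Tbr1 0.455 with the list of layers 6 and 6b. All 9 genes were thus positively related to the list of their own layer, past the test. For Fezf2 and Bcl11b the list of layers 6 and 6b gave a higher r, 0.705 and 0.838, and for Tbr1 the layer 5 list, 0.656.

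Oligodendrocyte markers, which are rich in the white matter beneath layer 6, rose with the deep genes. The 5 markers summed to 1443 to 3698 CPM in cortex, and all 5 were above 0 in every library. With this sum r was 0.840 for Tle4, 0.807 for Foxp2, 0.751 for Bcl11b, 0.636 for Fezf2 and 0.481 for Tbr1, and it was -0.410 for Rorb, -0.633 for Lamp5 and -0.767 for Cux2. Etv1, at 0.201, was not past the test. The sum ran from 1569 to 2545 CPM over wild-type libraries, from 1714 to 3698 CPM over Slc25a1 het, from 1443 to 3519 CPM over Mrpl40 het and from 1641 to 3062 CPM over double het libraries, so the groups overlapped. How much of the axis follows the depth of tissue taken was not tested.

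The cortex library labelled Slc25a1 het 4 lay at one end of this axis. It had the highest Foxp2 (25.0 CPM), Tle4 (63.8 CPM) and Bcl11b (84.8 CPM) of the 30. Its oligodendrocyte sum of 3698 CPM was also the highest and its upper-layer sum of 532 CPM the lowest. Its list of layers 6 and 6b, at 289 CPM, was second.

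**Figure D5:**
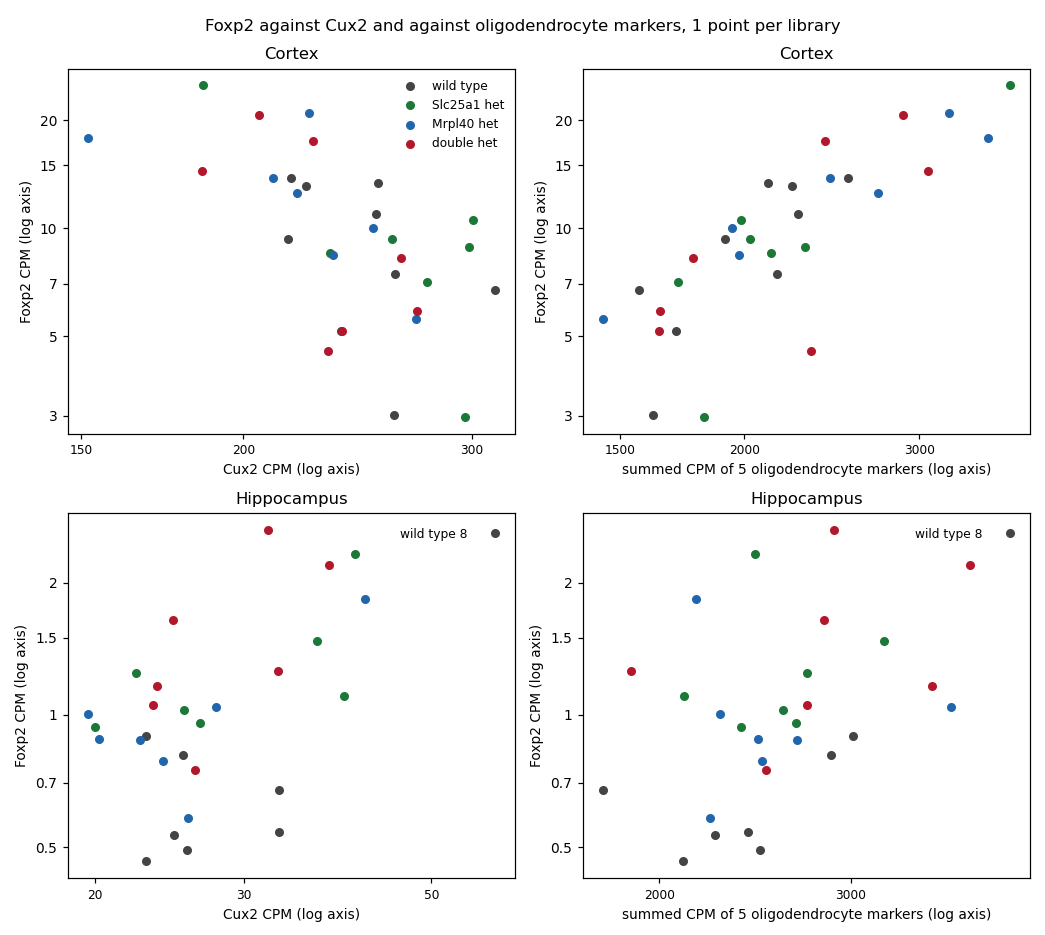
Foxp2 level against Cux2 level and against the summed CPM of 5 oligodendrocyte markers, in cortex and in hippocampus, on log axes, with 1 point per library coloured by labelled genotype. In cortex Foxp2 falls with Cux2 (r of -0.621) and rises with the markers (r of 0.807), and in hippocampus Foxp2 rises with Cux2 (r of 0.575).

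Fewer pairs of layer genes passed the test in hippocampus. Of 36 pairs, 7 passed the test over 29 libraries, 5 positive and 2 negative, and without hippocampus wild type 8 only 3 did. The 7 are 19.4% of the pairs, and 7.28% of all pairs of 16506 other genes reached the same r. The pairs that passed were Fezf2 with Etv1 (r of 0.797), Cux2 with Foxp2 (0.575), Rorb with Etv1 (0.563), Rorb with Fezf2 (0.517), Cux2 with Tbr1 (0.478), Lamp5 with Foxp2 (-0.500) and Cux2 with Bcl11b (-0.618). Without wild type 8, Fezf2 with Etv1 (0.752), Rorb with Etv1 (0.533) and Cux2 with Bcl11b (-0.533) passed. Lost were Cux2 with Foxp2 (0.479, adjusted p = 0.0613, permutation test), Rorb with Fezf2 (0.481, 0.0613), Lamp5 with Foxp2 (-0.415, 0.131) and Cux2 with Tbr1 (0.262, 0.400). Of the 15 deep pairs, 8 were positive and 1 passed.

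All 7 hippocampus pairs were also among the cortex calls, which is 100% of the hippocampus list and 25.0% of the cortex list. With 77.8% of the 36 pairs called in cortex, most of any 7 pairs would be among them. Of the 7, 3 kept their sign and 4 did not. Rorb and Fezf2, Rorb and Etv1, Cux2 and Tbr1, and Cux2 and Foxp2 were negative in cortex and positive in hippocampus. None of these 4 passed in both tissues under every alternative: Rorb with Etv1 and Cux2 with Tbr1 lost the cortex call with genotype means removed, and Rorb with Fezf2, Cux2 with Tbr1 and Cux2 with Foxp2 lost the hippocampus call without wild type 8.

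The difference between tissues was tested on the correlation itself, by swapping the tissues within each of the 29 animals (100000 resamples, two-sided, adjusted over 36 pairs), a test added after the values were seen. It passed for 16 of 36 pairs, and in 15 of these the signs of the 2 estimates were opposite. Only 7 pairs had passed in hippocampus itself, so most of these opposite signs rest on a hippocampus r that had not. The share of all gene pairs that would pass this test was not computed. Rorb and Fezf2 had r of -0.597 in cortex and 0.517 in hippocampus, a difference of -1.11 (permutation p = 1e-05, the smallest the resamples can give, adjusted p = 0.00024). Lamp5 and Bcl11b had -0.766 and 0.462 (adjusted permutation p = 0.00078), and Cux2 and Foxp2 -0.637 and 0.575 (adjusted permutation p = 0.00078). Bcl11b and Foxp2 had 0.847 and -0.319, and Foxp2 and Tle4 0.889 and 0.0949 (adjusted permutation p = 0.00371). Without wild-type animal 8, 17 pairs passed, 15 of them the same.

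The summed lists in hippocampus gave 27 of 99 relations past the test (27.3%), where 11.5% of those of 16428 other genes reached the same r. Bcl11b rose with the hippocampal subfield list (r of 0.877), and Cux2 fell with it (-0.772). Cux2 instead rose with the lists of layer 4 (0.807) and of layers 6 and 6b (0.673), over all libraries. Hippocampus wild type 8 had the highest Cux2, 59.4 CPM, and the highest sum of layers 6 and 6b, 277 CPM. Hippocampus Slc25a1 het 3, high in cerebellar markers, had Cux2 at 40.7 CPM. It also had the highest Rora, a gene of the layer 4 list, at 65.1 CPM against a median of 35.4 CPM. The r values of Cux2 without these libraries are not given here. Etv1 and Fezf2, the pair with the highest r, both rose with oligodendrocyte markers (0.652 and 0.634). That sum ran from 1777 to 4198 CPM, and its part in these relations was not tested.

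Animals with a high level in one tissue did not in general have a high level in the other. Over the 29 animals, Bcl11b correlated between tissues with r of 0.604 (rho 0.694, adjusted permutation p = 0.00423, 0.596 without 2 animals) and Cux2 with 0.528 (rho 0.553, adjusted permutation p = 0.0148, 0.375 without 2 animals). For the other 7 genes r lay between -0.190 and 0.0493.

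The genes most like each layer gene were read from deviations of log2 CPM from the genotype mean, among 13723 genes in cortex and 13718 in hippocampus, as a description. In cortex the closest to Foxp2 was Syt6, a synaptotagmin (r of 0.959), followed by Grik3 (0.937) and Hs3st4 (0.931). Bcl11b was closest to Grik3, a kainate receptor subunit (0.955), and Tle4 to Rai14 (0.927) and, at 0.925, Syt6. Syt6 is one of the 13 genes in the list of layers 6 and 6b. Cux2 was closest to Tnfrsf19 (0.932), Lamp5 to Zbtb18 (0.919), Fezf2 to Efhd2 (0.894), Tbr1 to Sv2a (0.836) and Etv1 to Kcnab1 (0.834).

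None of these closest genes was the closest to the same layer gene in hippocampus. There Cux2 was closest to Rims3 (0.933), Bcl11b to Tle1 (0.900), Rorb to Adhfe1 (0.899) and Etv1 to Mirt1 (0.890). Etv5, an ETS relative of Etv1, was among the 3 closest to Etv1 (0.870) and to Fezf2 (0.854), whose closest was Bend5 (0.857). Foxp2 was closest to Akap12 (0.859) and Cplx3 (0.850), the second of which is in the list of layers 6 and 6b. Tle4 was closest to Zfpm2 (0.804), Lamp5 to Zfand2b (0.797) and Tbr1 to Tbc1d30 (0.779).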

How the data were processed

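Poly(A) RNA of 59 cortex and hippocampus libraries from 30 male mice was sequenced as stranded paired ends, per the labels' protocols. The authors deposited 1 column of raw counts for each library. Their deposited normalized counts, a signal unit, are those counts divided by 1 factor per library (largest relative range within a library 9.85e-10). The submitters' processing notes name FastQC, HISAT2, featureCounts, DESeq2 and mm39, with no versions. Of 57180 genes listed, 7074 have a blank symbol.

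Counts were tested with edgeR 4.0.16 (limma 3.58.1, R 4.3.3, data.table package, version 1.17.8), with TMM, its filter on low counts, robust quasi-likelihood and a false discovery rate of 0.05, over all genes and with the 4 genotypes of a tissue fitted together. Tissues were compared with the animal as a block, because the labels give the animal of each library. Deviations from group means of both tissues of an animal correlated with a median r of 0.109, against -0.00812 between animals, over 5000 genes. Log2 CPM used a prior count of 2. Exon lengths came from GENCODE vM21 (GRCm38), matched by gene identifier. Correlations, ranks and figures used Python 3.11.15, numpy 2.4.6, pandas 2.3.3, scipy 1.17.1 and matplotlib 3.10.9. The fits were tested on simulated data.

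The members and marker lists were chosen with earlier results of these data known. Named genes were the 9 layer genes, Slc25a1 and Mrpl40, the 3 genes of each other layer or subfield list with the smallest p in the wild-type tissue difference, and the 3 genes most like each layer gene in each tissue, of which the text gives the closest ones and 1 is not reported here. Alternatives were DESeq2 size factors, the DESeq2 1.42.0 test, no filter, fits without the 6 animals against the label or without the 2 libraries high in cerebellar markers, and fits with other blocks. For correlations they were deviations from genotype means and the deposited normalized counts (log2 of the value plus 1). Fits without hippocampus wild type 8 were chosen after seeing the data.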

Additional observations from a re-analysis of the deposited data

Results flagged for a closer look

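In 12 of 72 groups (9 layer genes in 8 groups), the highest or lowest library stood apart from its neighbour. The gap was wider than Dixon's 95% value, which about 1 in 20 groups of normal, independent values pass by chance. The share of all genes with such a gap was not computed, so 12 of 72 is no result about layer genes. Hippocampus wild type 8 accounted for 6 of the 12, so the groups were not independent. It was highest for Cux2 (59.4 CPM, next 33.1), Etv1 (153, next 105), Fezf2 (41.6, next 27.8), Foxp2 (2.59, next 0.895) and Tbr1 (64.4, next 54.0) and lowest for Bcl11b (187, next 239). In the cortex of the same animal Cux2 was highest of the wild type, at 313 CPM (next 262).

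The cortex library labelled Slc25a1 het 4 stood above its group for Foxp2 (25.0 CPM, next 10.6) and Tle4 (63.8 CPM, next 45.3). Hippocampus Mrpl40 het 6 stood above its group for Cux2 (41.7 CPM, next 27.8) and Foxp2 (1.83 CPM, next 1.04), and hippocampus Slc25a1 het 3, which was high in cerebellar markers, for Foxp2 (2.33 CPM, next 1.47).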

How the results depend on the processing

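The count of layer genes called between genotypes was 0 under all 99 alternatives run, and the count called between tissues was 8 of 9 under all 28. Over these alternatives the wild-type tissue difference ranged from -3.95 to -3.21 for Foxp2, from -0.61 to -0.46 for Fezf2, from 0.67 to 0.70 for Tle4 and from 0.03 to 0.21 for Etv1. With the replicate number as a block, 0 layer genes were called between genotypes, as without. Same-numbered animals of different genotypes had a median r of 0.126 in cortex (lowest -0.405), against -0.0232 for other numbers. In hippocampus it was 0.0531 (lowest -0.455), against 0.00985. The best match had the same number for 9 of 30 cortex and 3 of 29 hippocampus libraries. These values do not settle whether same-numbered animals belong together. With that block the Foxp2 difference of double het from wild type in hippocampus was 1.19.

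The positive hippocampus pairs past the test went from 5 to 2 without hippocampus wild type 8. The negative ones went from 2 to 1 without it and also to 1 without the libraries high in cerebellar markers (Lamp5 and Foxp2, -0.486). With genotype means removed, Rorb and Etv1 (-0.373), Cux2 and Etv1 (-0.347) and Cux2 and Tbr1 (-0.312) no longer passed in cortex. Called under every alternative were 25 of 28 cortex pairs and 3 of 7 hippocampus pairs, and no alternative turned a sign that had passed. The cause of these changes was not tested. Cux2 and Tbr1 lost the test of the tissue difference in r without animal 8 (adjusted permutation p from 0.024 to 0.060).

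DESeq2 called more genes than edgeR over all genes, with 111 against 14 in cortex of double het against wild type, 23 against 6 for Mrpl40 het and 73 against 12 for double het against Slc25a1 het. Of the 9 genes Foxp2 had the widest standard errors between genotypes, 0.38 to 0.40 in cortex and 0.33 to 0.35 in hippocampus (log2), which limits the differences that could be called for it.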
